A study of Rattus norvegicus with 35 samples.

Results

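The collagen and laminin chains of the rat hippocampus are described here across 7 treatment groups. The members are all genes of the count table whose symbol is Col, a number, a and a number, or Lama, Lamb or Lamc with a digit. There are 50 of them among 15059 genes, 39 collagen chains and 11 laminin chains. A total of 46 had enough counts to be tested, among 14411 tested genes, and Col13a1, Col26a1, Col28a1 and Lamb3 did not.

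The animals were female Sprague Dawley rats that had surgery at 6 months of age. The sham group kept its ovaries. The other 6 groups were ovariectomised. A washout of 2 weeks and 7 days of treatment are listed for all 7 groups, and what the sham group received is not given here. The ovariectomised groups had daily intraperitoneal injections. These were vehicle alone, estradiol at 0.16 mg/kg, the estrogen receptor modulators tamoxifen at 3.23 mg/kg and raloxifene at 9.68 mg/kg, or the aromatase inhibitors exemestane at 0.16 mg/kg and anastrozole at 4.03 mg/kg. Each group had 5 libraries of poly(A)-selected hippocampal RNA, 35 in all. Levels are CPM, counts scaled to the size of each library.

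Collagens are built from 3 alpha chains wound into a triple helix and fall into classes by the structure they form. Fibrillar collagens give tissue its tensile strength, type IV collagens form the sheet of basement membranes, and type VIII collagens are short-chain collagens that form lattices. Laminins are cross-shaped trimers of an alpha, a beta and a gamma chain and form the other sheet of the basement membrane. In the brain these membranes line the vessels, the pial surface and the choroid plexus, while fibrillar collagens come mostly from fibroblasts of the meninges and of the choroid plexus stroma.

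The libraries differed in ways other than treatment, some spread over the groups and some tied to them. Their totals ran from 5578204 to 12093294 counts, with a median of 8010522. Markers of hippocampal neurons summed to between 2334 and 4103 CPM over the libraries, with 8 of 10 listed genes in the table. The lowest sum was that of sham replicate 1, which also had the highest sum of thalamus and habenula markers, 398 CPM, against 123 to 172 CPM in the other libraries. Ttr, the transthyretin made by the choroid plexus epithelium, fell into 2 separate sets. It stood between 0.495 and 65.8 CPM in 20 libraries, with a median of 2.97, and between 832 and 2770 CPM in 15, with a median of 1790. The 15 libraries of high Ttr were spread over all groups, with 3 each from sham and anastrozole, 2 each from vehicle, tamoxifen, raloxifene and exemestane, and 1 from estradiol. All 14 other genes of a list of choroid plexus epithelium markers present in the table rose with Ttr. Without Ttr the list summed to between 69.7 and 142 CPM in the libraries of low Ttr and between 521 and 1751 CPM in those of high Ttr. Folr1 and Kl, which define that epithelium, ran from 0 to 2.74 and from 0 to 5.59 CPM in the libraries of low Ttr and from 9.31 to 31.1 and from 64.3 to 226 CPM in those of high Ttr. A further split, seen in the ratio of the 2 deposited tables, separated 20 libraries (class A) from 15 (class B). Its axis carried 72.3% of the variance of that ratio. All sham and estradiol libraries and 4 of 5 vehicle libraries were of class A, all raloxifene libraries and 4 of 5 exemestane libraries of class B, and tamoxifen had 2 and anastrozole 3 of class A. What the classes are is not given in the labels. Rn7sl1 made up 4.47 to 6.49% of the counts in class A libraries and 2.90 to 3.84% in class B libraries.

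The first question was which chains moved with the Ttr level of a library, with the treatment groups held in the model. Of the 46 chains tested, 14 rose with Ttr and 0 fell (edgeR quasi-likelihood test, adjusted p under 0.05), where 4.91% of all genes changed, 4.57% upwards and 0.34% downwards. They were 3 of 5 laminin alpha chains, 1 of 2 beta chains, 1 of 3 gamma chains, 3 of 8 in the class of short-chain, beaded-filament and anchoring collagens, 3 of 11 fibrillar collagens, 1 of 6 type IV collagens, 1 of 8 fibril-associated collagens and 1 of 2 multiplexins. The median slope of the 46 chains was 0.0097 log2 units per log2 unit of Ttr, against -0.0013 over all genes, and 28 of the 46 slopes were positive. For 6 of the 14 the libraries of high Ttr all lay above those of low Ttr. The share of all genes that separate in this way was not counted. In bulk tissue, fewer cells of a type and less RNA per cell cannot be told apart.

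**Figure D1:**
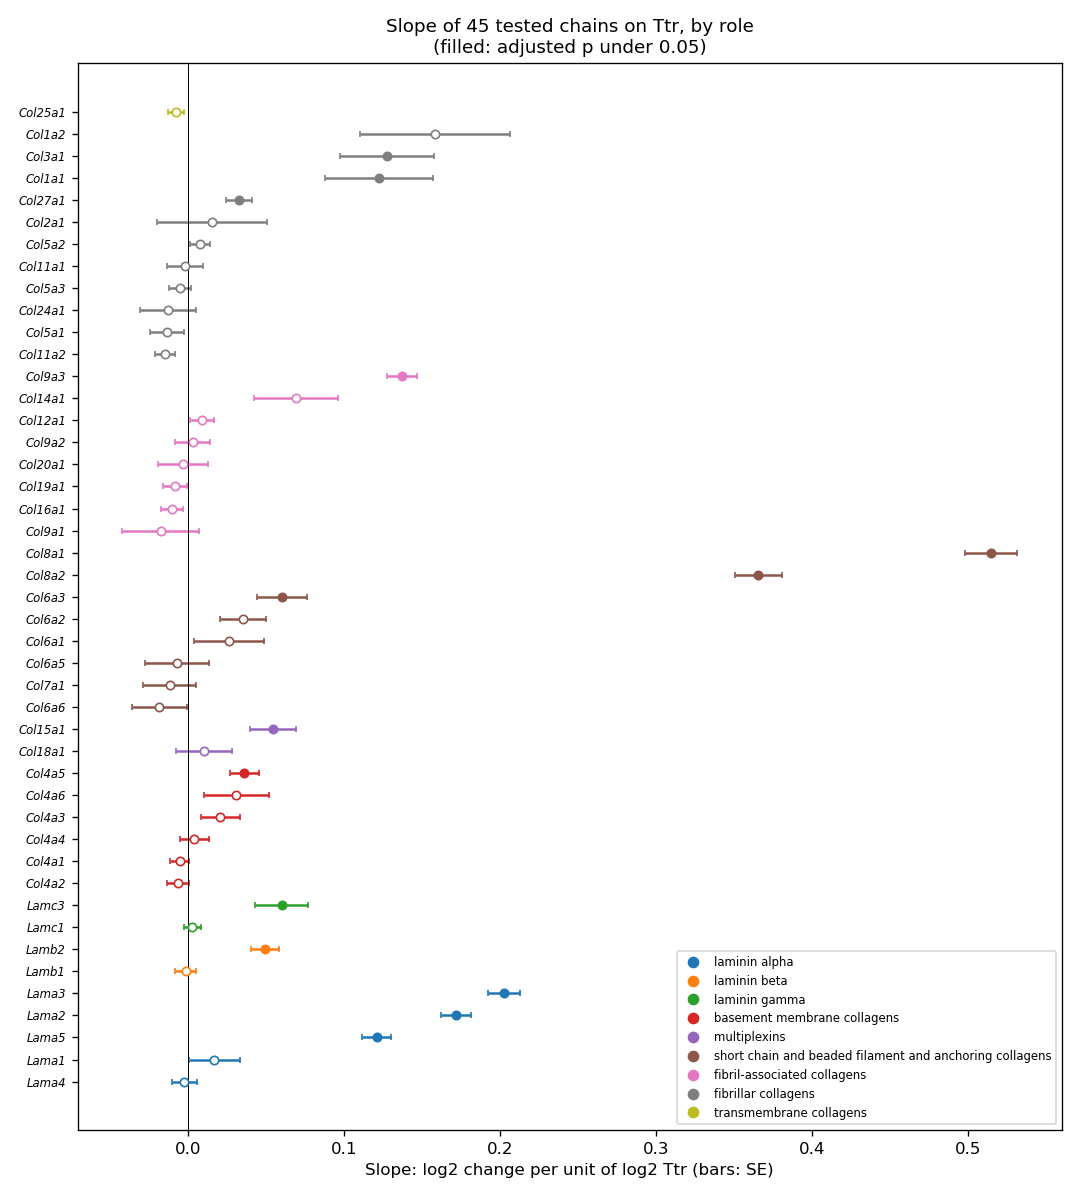
Slope of 45 of the 46 tested chains on Ttr (log2 change per unit of log2 Ttr, horizontal axis), ordered by structural class, with bars for the standard error and filled points for an adjusted p under 0.05. Col8a1 at 0.51 and Col8a2 at 0.37 lie farthest to the right, followed by the laminin chains Lama3 at 0.20 and Lama2 at 0.17, while Lamc1, Lamb1, Col4a1 and Col4a2 sit near 0.

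The type VIII chains rose most steeply. Col8a1 ran from 0.369 to 1.91 CPM in the 20 libraries of low Ttr, with a median of 0.951, and from 9.42 to 32.3 CPM in the 15 of high Ttr, with a median of 21.3. The medians stood 22.4-fold apart and the sets did not overlap. Col8a2 ran from 0.664 to 3.44 CPM (median 1.74) in the low set and from 7.45 to 25.9 CPM (median 16.9) in the high set, again with no overlap and medians 9.71-fold apart. The slopes were 0.51 ± 0.017 (SE) for Col8a1 and 0.37 ± 0.015 for Col8a2, with edgeR adjusted p-values of 4.04e-23 and 3.57e-20. Vehicle replicate 2, whose Ttr of 65.8 CPM is the highest of the low set, held Col8a1 at 1.37 and Col8a2 at 3.42 CPM. Col8a2 had its highest value of the low set, 3.44 CPM, in vehicle replicate 1, where Ttr was 5.92 CPM.

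3 of the 5 laminin alpha chains followed. The alpha chain carries most of the sites by which a laminin binds receptors on cells. Lama3, an alpha chain of epithelial laminins, ran from 7.20 to 12.3 CPM (median 9.79) in the low set and from 17.3 to 44.2 CPM (median 34.5) in the high set, and its slope was 0.20 ± 0.01 (edgeR adjusted p = 1.23e-17). Lama2, the alpha chain of the muscle and nerve laminin merosin, ran from 7.92 to 13.8 CPM (median 10.7) and from 18.6 to 41.0 CPM (median 28.5), with a slope of 0.17 ± 0.0095 (edgeR adjusted p = 2.25e-16). Lama5, found in most mature basement membranes, ran from 7.82 to 17.9 CPM (median 12.9) and from 18.9 to 37.7 CPM (median 25.6), with a slope of 0.12 ± 0.0091 (edgeR adjusted p = 9.59e-13). For all 3 chains the lowest library of the high set lay above the highest of the low set. The medians stood 3.52-fold, 2.65-fold and 1.98-fold apart. Lama4, the main alpha chain of endothelial basement membranes, had a slope of -0.0022 ± 0.0081 (edgeR adjusted p = 0.936), and Lama1, found in the pial membrane, one of 0.017 ± 0.016 (edgeR adjusted p = 0.689).

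Among the beta and gamma chains the slopes were smaller. Lamb2, the beta chain that replaces Lamb1 in several mature membranes, had medians of 49.0 and 64.1 CPM and overlapping sets, with a slope of 0.05 ± 0.0087 (edgeR adjusted p = 0.00012). Lamc3 rose by 0.06 ± 0.017 per unit (edgeR adjusted p = 0.0308), from a median of 6.93 to one of 10.1 CPM. Lamb1 and Lamc1, which most laminin trimers contain, had slopes of -0.0011 ± 0.0067 and 0.003 ± 0.0054 (edgeR adjusted p 0.963 and 0.857). Their medians were 62.2 and 61.5 CPM for Lamb1 and 61.6 and 62.7 CPM for Lamc1 in the low and high sets.

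**Figure D2:**
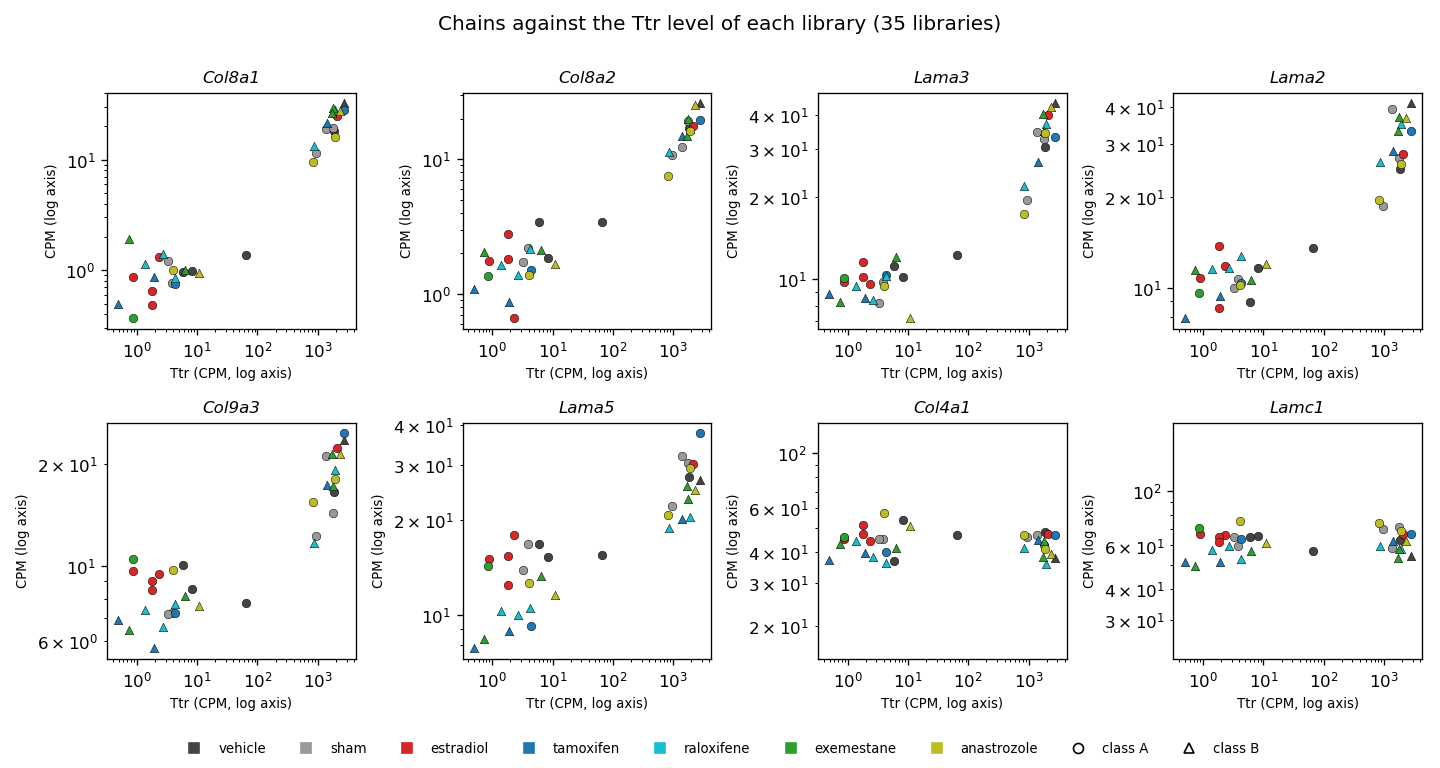
Level of 8 chains (CPM, log axis) against Ttr (CPM, log axis) in the 35 libraries, coloured by treatment, with circles for class A and triangles for class B. The 15 libraries of high Ttr lie above the other 20 for Col8a1, Col8a2, Lama3, Lama2, Col9a3 and Lama5. They include every colour and both symbols, but not both symbols in every colour. Among them sham and estradiol are circles only, and raloxifene and exemestane are triangles only. Col4a1 and Lamc1 lie at like levels in both sets.

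Of the other collagens, Col9a3, 1 of the 3 chains of the cartilage collagen type IX, ran from 5.72 to 10.46 CPM (median 7.73) in the low set and from 11.7 to 24.6 CPM (median 17.998) in the high set without overlap. Its slope was 0.14 ± 0.0099 (edgeR adjusted p = 2.88e-13), whereas its partner chains Col9a1 and Col9a2 had slopes of -0.017 ± 0.025 and 0.0032 ± 0.011 (edgeR adjusted p 0.809 and 0.935). The remaining 6 collagens that passed had overlapping sets. The fibrillar chains Col3a1 and Col1a1 had slopes of 0.13 ± 0.03 and 0.12 ± 0.035 (edgeR adjusted p 0.00562 and 0.0349) and Col27a1 one of 0.033 ± 0.0082 (0.0100). The type VI chain Col6a3, a beaded-filament collagen, had a slope of 0.061 ± 0.016 (0.0151), the multiplexin Col15a1 0.055 ± 0.015 (0.0179) and the type IV chain Col4a5 0.036 ± 0.0093 (0.0124). Col1a2, the partner of Col1a1, lay just outside the threshold at 0.16 ± 0.048 (0.0529), and it passed with class in the model. It is listed at 0 in 3 libraries, estradiol replicate 1 and raloxifene replicates 3 and 5, in which Col1a1 stood at 6.14, 4.88 and 5.14 CPM. Col4a1 and Col4a2, the chains of the ubiquitous type IV network, had slopes of -0.0052 ± 0.0061 and -0.0063 ± 0.0071 (0.759 and 0.745).

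The slope mostly sets the high libraries against the low ones. Within the 20 libraries of low Ttr alone, 0 chains passed (0.00688% of all genes rose). Within the 15 of high Ttr, 3 chains passed (0.232% of all genes rose), namely Col8a1 at 0.87 ± 0.13, Col8a2 at 0.83 ± 0.14 and Lama3 at 0.73 ± 0.11 (edgeR adjusted p 0.0107, 0.0378 and 0.0140). Of the chains without overlap, Lama2, Col9a3 and Lama5 had slopes of 0.51 ± 0.15, 0.44 ± 0.14 and 0.34 ± 0.12 there and did not pass (edgeR adjusted p 0.593, 0.750 and 0.9999). Within class A, 7 chains rose (2.51% of all genes), and within class B 12 (3.16%). The same 6 chains that did not overlap were among those called in both classes. Their slopes were 0.51 and 0.50 for Col8a1, 0.35 and 0.37 for Col8a2, 0.20 and 0.21 for Lama3, 0.16 and 0.17 for Lama2, 0.13 and 0.15 for Col9a3 and 0.12 and 0.13 for Lama5 in classes A and B. A test of the difference in slope between the classes called 0 chains, with 0 at an unadjusted p under 0.05 (0% of all genes called).

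Leaving out each of the 35 libraries in turn, Col8a1, Col8a2, Lama3, Lama2, Col9a3, Lama5, Lamb2, Col3a1, Col27a1 and Col4a5 passed in all 35 fits. Col6a3 and Col15a1 each passed in 33, Lamc3 in 29 and Col1a1 in 23. Without tamoxifen replicate 2, whose Ttr of 2770 CPM is the highest, 10 chains passed, and Col1a1, Col6a3, Col15a1 and Lamc3 did not. Col6a3 was also lost without exemestane replicate 2 and Col15a1 without estradiol replicate 2. Lamc3 was also lost without tamoxifen replicate 5, raloxifene replicates 2, 3 and 4 or exemestane replicate 1. Col1a1 was also lost without sham replicates 2 and 4, tamoxifen replicates 3 and 5, raloxifene replicates 3 and 4, exemestane replicate 1, anastrozole replicates 2 and 3 or vehicle replicates 4 and 5.

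The sequences around the gene starts of Col8a1, Col8a2 and Lama5 are shown because these chains rose with Ttr and each window holds at least 4 matches to GGGCGG, the letters of the GC box bound by Sp1. The window of Lamc1, whose level did not pass on Ttr, holds 5 matches, as many as that of Col8a2, and the windows of Lama3, Col6a3 and Col15a1, which rose, hold 0. Each window runs from 250 bases before to 50 after the start in RefSeq (build GRCr8), and capitals mark GGGCGG on either strand. The windows are chr11:56246532-56246831 on the plus strand for Col8a1, chr5:143870519-143870818 on the plus strand for Col8a2 and chr3:187695925-187696224 on the minus strand for Lama5.
Col8a1: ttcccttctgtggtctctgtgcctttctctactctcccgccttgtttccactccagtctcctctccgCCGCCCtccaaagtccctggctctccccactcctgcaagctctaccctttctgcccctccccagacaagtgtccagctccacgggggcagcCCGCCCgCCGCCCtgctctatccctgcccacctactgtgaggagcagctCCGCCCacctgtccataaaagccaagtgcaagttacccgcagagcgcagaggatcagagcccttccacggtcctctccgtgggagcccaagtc
Col8a2: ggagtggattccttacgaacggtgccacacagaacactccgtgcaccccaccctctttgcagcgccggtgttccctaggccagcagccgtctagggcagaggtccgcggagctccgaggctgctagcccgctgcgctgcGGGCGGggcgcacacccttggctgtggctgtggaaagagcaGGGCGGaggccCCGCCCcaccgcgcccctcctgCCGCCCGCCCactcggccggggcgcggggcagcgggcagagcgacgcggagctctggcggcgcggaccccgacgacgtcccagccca
Lama5: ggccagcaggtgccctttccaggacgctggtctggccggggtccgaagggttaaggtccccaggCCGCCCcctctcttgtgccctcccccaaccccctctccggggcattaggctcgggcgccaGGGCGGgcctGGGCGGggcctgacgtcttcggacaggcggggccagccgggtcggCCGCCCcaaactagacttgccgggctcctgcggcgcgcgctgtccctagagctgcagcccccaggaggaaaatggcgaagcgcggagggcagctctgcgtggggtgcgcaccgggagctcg
Windows were found for 40 of the 50 chains. GGGCGG occurred in 23 of these 40 and in 33.1% of 33469 rat windows of the same length. The CCAAT letters occurred in 11 of 40 and in 37.5% of all windows, and TATAAA, the core of the TATA box, in 3 of 40 and in 14.2%. TAATCC, the letters bound by Otx-type homeodomains, occurred in 0 of 40 and in 7.17% of all windows. All motifs were searched on both strands and a match is only a description of the letters.

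Genes that process or hold these chains were counted from 2 lists. Of 27 tested genes for collagen folding, modification and crosslinking, 6 rose with Ttr and 0 fell, where 4.57% of all genes rose and 0.34% fell. Pcolce, which enhances procollagen C-terminal cleavage, had a slope of 0.19 ± 0.024, the lysyl hydroxylase Plod2 one of 0.09 ± 0.015, the lysyl oxidase family member Loxl1 0.06 ± 0.012 and the prolyl hydroxylation cofactor Crtap 0.06 ± 0.012 (edgeR adjusted p 2.35e-07, 7.83e-05, 0.00119 and 0.00176). Of 23 tested partners and receptors of the basement membrane, 7 rose and 0 fell, against the same 4.57% and 0.34% of all genes. Among them were the matrix metalloproteinases Mmp2 at 0.20 ± 0.015 and Mmp14 at 0.14 ± 0.014, the laminin-binding integrin Itga3 at 0.03 ± 0.0051 and the inhibitor Timp3 at 0.05 ± 0.0086 (edgeR adjusted p 2.30e-13, 2.71e-09, 5.38e-05 and 8.28e-05). The median slope was 0.0057 in the first list and 0.014 in the second.

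Most but not all genes of a list of leptomeningeal and stromal fibroblast markers moved with Ttr as well. Of 15 tested genes of that list, 10 rose with Ttr and 0 fell, where 4.57% of all genes rose. The slopes were unlike in size, from 0.39 for Igf2, 0.37 for Igfbp2 and 0.35 for Slc13a4 to 0.044 for Dcn and -0.011 for Cemip. Lum, Slc6a13, Slc22a6, Aebp1 and Cemip did not pass. Pdgfra, 1 of the 10, is also on the list of the oligodendrocyte lineage. Its summed level ran from 291 to 1504 CPM over the 35 libraries, with a median of 447. Lum, a fibroblast proteoglycan, ran from 1.76 to 5.10 CPM in the low set and from 1.01 to 7.39 CPM in the high set, and Dcn, another, from 11.9 to 26.7 and from 13.04 to 34.3 CPM. Igf2 stood between 9.47 and 29.5 CPM in the low set and between 85.6 and 292 CPM in the high set. With the fibroblast list in the model beside Ttr, 6 chains were called on Ttr (0.916% of all genes rose and 0.118% fell). Col8a1 at 0.50 ± 0.037, Col8a2 at 0.31 ± 0.032, Lama3 at 0.18 ± 0.024, Lama2 at 0.15 ± 0.022 and Col9a3 at 0.10 ± 0.022 rose, and Col3a1 fell by 0.16 ± 0.036 per unit (edgeR adjusted p 5.96e-12, 2.06e-08, 2.94e-06, 2.42e-05, 0.00707 and 0.0129). Lama5 had a slope of 0.07 ± 0.019 (edgeR adjusted p = 0.0571). Because the list itself rose with Ttr, this fit separates the list from Ttr only in part.

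In the same kind of model, with group, class and Ttr held, 7 chains rose with the mean log2 level of the fibroblast list and 0 fell, where 0.416% of all genes changed, 0.375% upwards and 0.0416% downwards. The slope per log2 unit of the list was 2.00 ± 0.23 for Col3a1, 2.51 ± 0.49 for Col1a2, 1.92 ± 0.38 for Col1a1 and 1.02 ± 0.15 for Col6a3 (edgeR adjusted p 1.06e-06, 0.0114, 0.0129 and 7.46e-05). Lamc3 had a slope of 0.87 ± 0.19, Col4a5 one of 0.55 ± 0.1 and Lamb2 one of 0.41 ± 0.072 (0.0168, 0.00372 and 0.00125). Col8a1 stood at 0.18 ± 0.2 and Col8a2 at 0.47 ± 0.19 and neither passed (0.835 and 0.406). Without tamoxifen replicate 2, 3 chains passed, Col1a2, Col3a1 and Col6a3, and without estradiol replicate 3 or raloxifene replicate 4 Lamc3 was lost. Over the 35 fits without 1 library Col1a2, Col3a1 and Col6a3 passed in all.

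**Figure D3:**
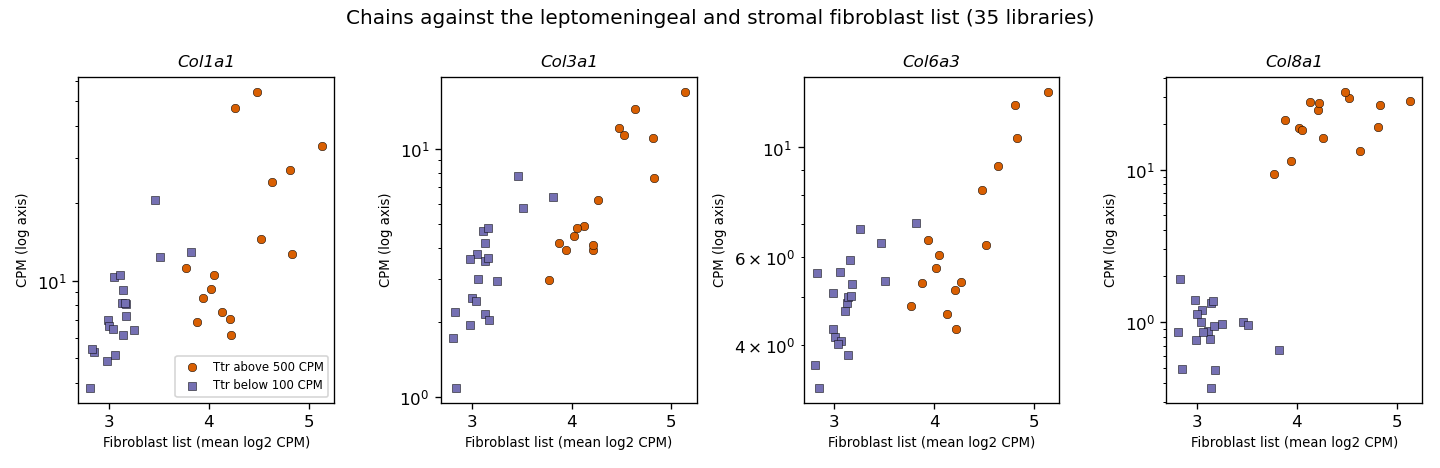
Level of Col1a1, Col3a1, Col6a3 and Col8a1 (CPM, log axis) against the mean log2 CPM of the fibroblast list in the 35 libraries, with circles for the 15 libraries of high Ttr and squares for the 20 of low Ttr. Col1a1, Col3a1 and Col6a3 climb within both sets, whereas Col8a1 splits by set.

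Single libraries carried the highest levels of the fibrillar chain Col3a1. Col3a1 stood at 16.9 CPM in tamoxifen replicate 2, 14.4 in raloxifene replicate 4, 12.1 in vehicle replicate 4, 11.4 in exemestane replicate 1 and 11.04 in sham replicate 2. Those libraries are all of high Ttr. Among the libraries of low Ttr, Col3a1 was highest in anastrozole replicate 1 at 7.81 CPM and in estradiol replicate 3 at 6.39 CPM. The fibroblast list had a mean log2 level of 3.82 in estradiol replicate 3, the highest among the low-Ttr libraries, at a Ttr of 1.80 CPM.

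Against the endothelial list, 0 chains passed with group, class and Ttr held (0.0902% of all genes did, 0.0763% with a positive slope), although 25 of 46 had an unadjusted p under 0.05 and 43 of 46 slopes were positive. These 2 counts are not set beside the shares of all genes here, so they do not mark the chains out from other genes. The smallest edgeR adjusted p was 0.0553, for Col3a1. Of the chains of vessel basement membranes, Col4a1 had a slope of 0.72 ± 0.22, Col4a2 one of 0.70 ± 0.26 and Lama4 one of 1.23 ± 0.3 per log2 unit of the list (edgeR adjusted p 0.241, 0.373 and 0.107). The list's summed level spanned only 213 to 312 CPM over the libraries. Nid1, the nidogen that joins laminin to type IV collagen, rose by 2.66 per unit (edgeR adjusted p = 0.0152). Leaving out 1 library gave from 0 to 2 chains, with 2 without sham replicate 4 (Col18a1, Col3a1) and without estradiol replicate 2 or 3 or exemestane replicate 2 or 3 (Col3a1, Col6a3).

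Chains that are partners in 1 molecule were compared over the libraries in 9 pairs, with permutation tests adjusted over the 9. Col4a1 and Col4a2 are transcribed in opposite directions from a shared promoter region. Their windows of 300 bases are shown because 176 bases belong to both, printed in capitals (chr16:84885471-84885646, GRCr8). The starts lie 77 bases apart and the shared stretch is 75.0% G and C, against a median of 51.7% over all windows. The windows are chr16:84885347-84885646 on the plus strand for Col4a1 and chr16:84885471-84885770 on the minus strand for Col4a2, so that the capitals of 1 are the reverse complement of the other's.
Col4a1: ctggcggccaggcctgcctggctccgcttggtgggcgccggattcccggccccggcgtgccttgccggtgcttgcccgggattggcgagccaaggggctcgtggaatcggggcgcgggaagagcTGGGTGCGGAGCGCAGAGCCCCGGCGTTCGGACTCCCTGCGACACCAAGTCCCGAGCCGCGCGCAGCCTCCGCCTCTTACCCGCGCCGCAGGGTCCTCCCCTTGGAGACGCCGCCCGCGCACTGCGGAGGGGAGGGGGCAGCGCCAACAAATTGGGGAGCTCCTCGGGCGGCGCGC
Col4a2: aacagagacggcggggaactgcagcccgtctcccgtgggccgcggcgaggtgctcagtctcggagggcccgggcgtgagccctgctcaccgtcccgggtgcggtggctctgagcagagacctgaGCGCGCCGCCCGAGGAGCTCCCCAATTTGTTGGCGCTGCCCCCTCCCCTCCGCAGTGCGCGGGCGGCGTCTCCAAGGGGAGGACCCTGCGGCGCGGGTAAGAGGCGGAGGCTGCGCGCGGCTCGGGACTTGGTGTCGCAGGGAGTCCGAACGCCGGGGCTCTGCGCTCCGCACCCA
Over the 35 libraries the log2 levels of Col4a1 and Col4a2 had a Pearson r of 0.789 and a Spearman rho of 0.826 (permutation p = 1e-05 for both, the smallest the permutations can give, adjusted 3e-05 and 2.25e-05). Without the 2 libraries farthest from the median of Col4a1 r was 0.785. Within class A r was 0.684 (adjusted permutation p 0.00196) and within class B 0.760 (0.00342).

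Col4a3 and Col4a4, chains of the kidney and lung type IV network, also lie head to head. Their windows share 88 bases, in capitals (chr9:91323740-91323827, GRCr8), with starts 413 bases apart, in chr9:91323740-91324039 on the plus strand and chr9:91323528-91323827 on the minus strand.
Col4a3: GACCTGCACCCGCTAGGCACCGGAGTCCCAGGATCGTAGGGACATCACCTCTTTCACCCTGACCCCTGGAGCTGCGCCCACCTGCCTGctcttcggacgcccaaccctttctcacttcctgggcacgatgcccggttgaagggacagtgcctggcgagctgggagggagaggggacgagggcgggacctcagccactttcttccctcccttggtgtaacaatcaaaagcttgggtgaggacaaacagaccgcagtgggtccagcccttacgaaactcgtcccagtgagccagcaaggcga
Col4a4: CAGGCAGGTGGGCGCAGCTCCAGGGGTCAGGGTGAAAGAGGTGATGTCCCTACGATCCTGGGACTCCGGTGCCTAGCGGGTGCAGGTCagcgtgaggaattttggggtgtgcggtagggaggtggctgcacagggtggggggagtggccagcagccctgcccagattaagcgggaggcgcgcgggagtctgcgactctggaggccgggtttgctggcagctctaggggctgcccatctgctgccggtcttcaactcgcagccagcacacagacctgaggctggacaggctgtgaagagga
Their r was 0.606 and rho 0.592 over the 35 libraries (adjusted permutation p 0.000252 and 0.000576), 0.612 without 2 libraries, 0.590 within class A and 0.631 within class B (0.00929 and 0.0232). Within the 20 libraries of low Ttr r was 0.586 and rho 0.620 (0.0166 and 0.00997), and r was 0.565 without 2 libraries. Within the 15 of high Ttr r was 0.684 and rho 0.482 (0.0112 and 0.0919), and r was 0.236 without 2 libraries. Col4a5 and Col4a6 start 1415 bases apart on chromosome X, and their windows do not overlap. Their r was 0.438 and rho 0.387 (adjusted permutation p 0.0118 and 0.0299), and r was 0.553 within class A and 0.429 within class B (0.0165 and 0.166). Over all libraries r was 0.303 without the 2 farthest from the median, so the pooled relation rests in part on those. Within the 15 libraries of high Ttr r was 0.624 and rho 0.679 (0.0211 and 0.0123) and r was 0.750 without 2 libraries, whereas within the 20 of low Ttr r was 0.0361 (0.881). The difference between those sets was not tested.

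Of the fibrillar chains, Col1a1 and Col3a1 had an r of 0.822 and a rho of 0.831 (adjusted permutation p 3e-05 and 2.25e-05), 0.876 without 2 libraries, and 0.820 and 0.853 within classes A and B (0.00018 and 0.000225). Col1a1 and Col1a2, the chains of type I collagen, had an r of 0.720 and a rho of 0.754 (4.5e-05 and 2.25e-05), 0.719 without 2 libraries, and 0.715 and 0.716 within the classes (0.00084 and 0.0140). Col5a1 and Col5a2, the chains of type V collagen, had an r of -0.0451 and a rho of -0.0179 (adjusted permutation p 0.796 and 0.918), -0.0174 without 2 libraries, and -0.0213 and 0.378 within the classes (0.929 and 0.215). Col6a1 and Col6a2 had an r of 0.341 and a rho of 0.291 and did not pass (0.0527 and 0.102), with 0.237 without 2 libraries and 0.462 and 0.354 within the classes (0.0552 and 0.222). Lamb1 and Lamc1 had an r of 0.440 and a rho of 0.546 (0.0113 and 0.00111) and 0.435 without 2 libraries, but 0.385 and 0.288 within classes A and B (0.110 and 0.299), where it did not pass. Because Col8a1 and Col8a2 fall into the separate sets of Ttr, no pooled r is given. Within the 20 libraries of low Ttr r was 0.102 and rho 0.0481 (adjusted permutation p 0.751 and 0.840) and -0.0161 without 2 libraries. Within the 15 of high Ttr r was 0.862 and rho 0.818 (0.00054 and 0.00166) and 0.714 without 2 libraries.

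The second question was whether ovariectomy or a treatment changed these chains. All comparisons with vehicle share the 5 vehicle libraries. Of 46 chains, 4 differed among the 7 groups, where 37% of all genes did: the fibril-associated Col9a2, the anchoring-fibril collagen Col7a1, the cartilage collagen Col2a1 and the fibrillar Col11a2 (edgeR adjusted p 0.00245, 0.00529, 0.0105 and 0.0261). With class in the model 0 differed, where 0.0278% of all genes did. With class in the model 0 chains passed in any comparison with vehicle, where 0.0416% of all genes did for sham and 0.298% for estradiol, and with Ttr and class in the model again 0 did, with 0.0486% of all genes for sham. The count of chains that differed among the groups, taken without single libraries, ran from 3 to 13, and was 13 without tamoxifen replicate 2. Without sham replicate 1 it was again 4, with Col5a1 in place of Col2a1. The share of all genes was not counted in these fits. Col8a1 and Col8a2, which rose most steeply with Ttr, had edgeR adjusted p-values of 0.993 and 0.963 for a difference among the groups.

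Raloxifene against vehicle called 2 chains, both lower, where 24.8% of all genes changed, 11.4% of them downwards. All 5 raloxifene libraries are of class B, as is 1 vehicle library, while the other 4 vehicle libraries are of class A. Within this pair of groups only that 1 vehicle library separates class from treatment. The model with class also draws on tamoxifen, exemestane and anastrozole, which hold libraries of both classes. Col9a2 stood at 5.98, 6.398, 5.22, 7.50 and 6.43 CPM in the raloxifene libraries and at 8.54, 10.1, 11.6, 8.60 and 11.7 CPM in the vehicle libraries. All 5 raloxifene libraries lay below all 5 vehicle libraries, including the class B vehicle library, replicate 4, at 8.60 CPM. The means were 6.31 ± 0.825 and 10.1 ± 1.56 CPM (SD, n = 5), and the log2 fold change was -0.69 ± 0.17 (SE; edgeR adjusted p = 0.0128). With class in the model the fold change was -0.44 ± 0.19 (0.908), and with the authors' per-gene factors -0.48 ± 0.16 (0.0610). Col11a2, a chain of the minor fibrillar collagen type XI, stood at 173, 197, 193, 166 and 179 CPM under raloxifene and at 206, 233, 229, 182 and 259 CPM under vehicle. The only vehicle library within the raloxifene range was the class B one, at 182 CPM. The log2 fold change was -0.29 ± 0.11 (edgeR adjusted p = 0.0420), it went to -0.048 ± 0.097 with class in the model (0.992) and to -0.14 ± 0.084 with the authors' factors (0.317). Leaving out 1 library kept the call of Col9a2 in 10 of 10 fits and that of Col11a2 in 2 of 10, without raloxifene replicate 2 and without vehicle replicate 4. Of the raloxifene libraries 2, and of the vehicle libraries 2, were of high Ttr.

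**Figure D4:**
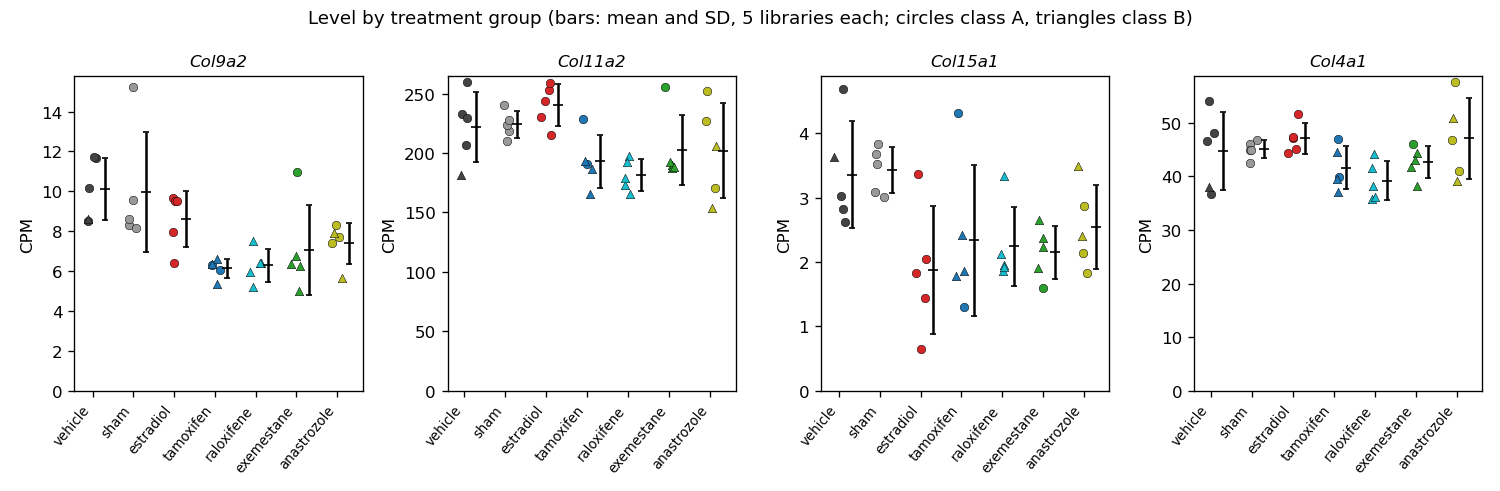
Level (CPM) of Col9a2, Col11a2, Col15a1 and Col4a1 in each of the 35 libraries by treatment group, with bars for the mean and SD of 5 libraries, circles for class A and triangles for class B. Col9a2 lies below every vehicle library in all tamoxifen, raloxifene and anastrozole libraries, and in exemestane the class A library stands apart at 10.95 CPM.

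Of 27 tested folding genes, 6 fell and 1 rose under raloxifene in the fit without class, a share near the 24.8% of all genes called there. Those that fell included the C-proteinase Bmp1 by 0.45 on the log2 scale, the lysyl hydroxylases Plod3 by 0.43 and Plod1 by 0.43 and the galactosyltransferase Colgalt1 by 0.25 (edgeR adjusted p 0.0113, 0.0114, 0.0138 and 0.0139). Of 23 partners, where again 24.8% is the share over all genes, 1 fell and 2 rose: the collagen receptor Ddr1 fell by 0.40 and the integrin chains Itgb1 and Itga6 rose by 0.24 and 0.21 (0.0138, 0.0460 and 0.0471). In exemestane, where 6.51% of all genes changed, 4.06% upwards and 2.45% downwards, Plod3 fell by 0.43 and Ddr1 by 0.37 (0.0394 and 0.0454) and 0 chains passed. With class in the model, 0.00694% of all genes passed for raloxifene and 0% for exemestane, and 0 chains in either. In exemestane 2 of 46 chains had an unadjusted p under 0.05, a smaller share than the 4519 of 14411 over all tested genes. The median log2 fold change of the chains was -0.06, against -0.14 under raloxifene. Col15a1 differed by -0.64 ± 0.28 and Col12a1 by 0.22 ± 0.1 (edgeR adjusted p 0.116 and 0.204).

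In the other groups Col9a2 did not pass. In tamoxifen it stood at 6.07, 6.31, 5.37, 6.61 and 6.34 CPM, all below the lowest vehicle library, and its log2 fold change of -0.72 ± 0.18 had an edgeR adjusted p of 0.100. The 2 class A tamoxifen libraries held 6.07 and 6.31 CPM. Within class A alone the tamoxifen fold change was -0.77 ± 0.24 (edgeR adjusted p = 0.564). In exemestane it stood at 6.74, 6.27, 6.35, 4.99 and 10.95 CPM, a fold change of -0.52 ± 0.17 (0.0577), and the value of 10.95 belonged to the only class A library of that group. In anastrozole it stood at 8.31, 7.40, 5.63, 7.90 and 7.73 CPM, all below the lowest vehicle library, with a fold change of -0.46 ± 0.17 (edgeR adjusted p = 0.9999). Sham libraries held 15.2, 9.56, 8.33, 8.15 and 8.61 CPM and estradiol libraries 7.97, 6.39, 9.66, 9.52 and 9.49 CPM, both overlapping with vehicle. DESeq2 called Col9a2 in tamoxifen and exemestane too (DESeq2 adjusted p 0.0397 and 0.0415). The share of all genes that DESeq2 called was not counted.

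For sham, which sets rats with ovaries against ovariectomised rats given vehicle, edgeR called 0 chains (0% of all genes), and DESeq2 called 0 chains. The unadjusted p of 2 of 46 chains was under 0.05, as was that of 981 of all 14411 tested genes. The median log2 fold change of the chains was 0.033. Col5a2 differed by -0.23, Col7a1 by 0.53 and Col25a1, the brain collagen found in amyloid plaques, by -0.14 (adjusted p 0.692 to 0.817). Without sham replicate 1 edgeR again called 0 chains.

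For estradiol, edgeR and DESeq2 each called 0 chains (0.00694% of all genes by edgeR). An unadjusted p under 0.05 was found for 2 of 46 chains and for 1316 of all 14411 tested genes. The chain of smallest p was Col15a1, the multiplexin of vessel and muscle basement membranes. It stood at 1.83, 3.37, 0.655, 1.45 and 2.04 CPM under estradiol and at 3.03, 2.62, 4.68, 3.63 and 2.82 CPM under vehicle. Estradiol replicate 2, at 3.37 CPM, was the only estradiol library of high Ttr and the only 1 within the vehicle range. The log2 fold change was -0.85 ± 0.29 (edgeR adjusted p = 0.377), and -0.66 ± 0.25 with Ttr in the model (0.518). Col8a1 and Col8a2 differed by -0.998 ± 1.4 and -1.10 ± 1.1 between these groups and by 0.39 ± 0.31 and 0.09 ± 0.27 with Ttr in the model (0.815, 0.740, 0.766 and 0.944).

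**Figure D5:**
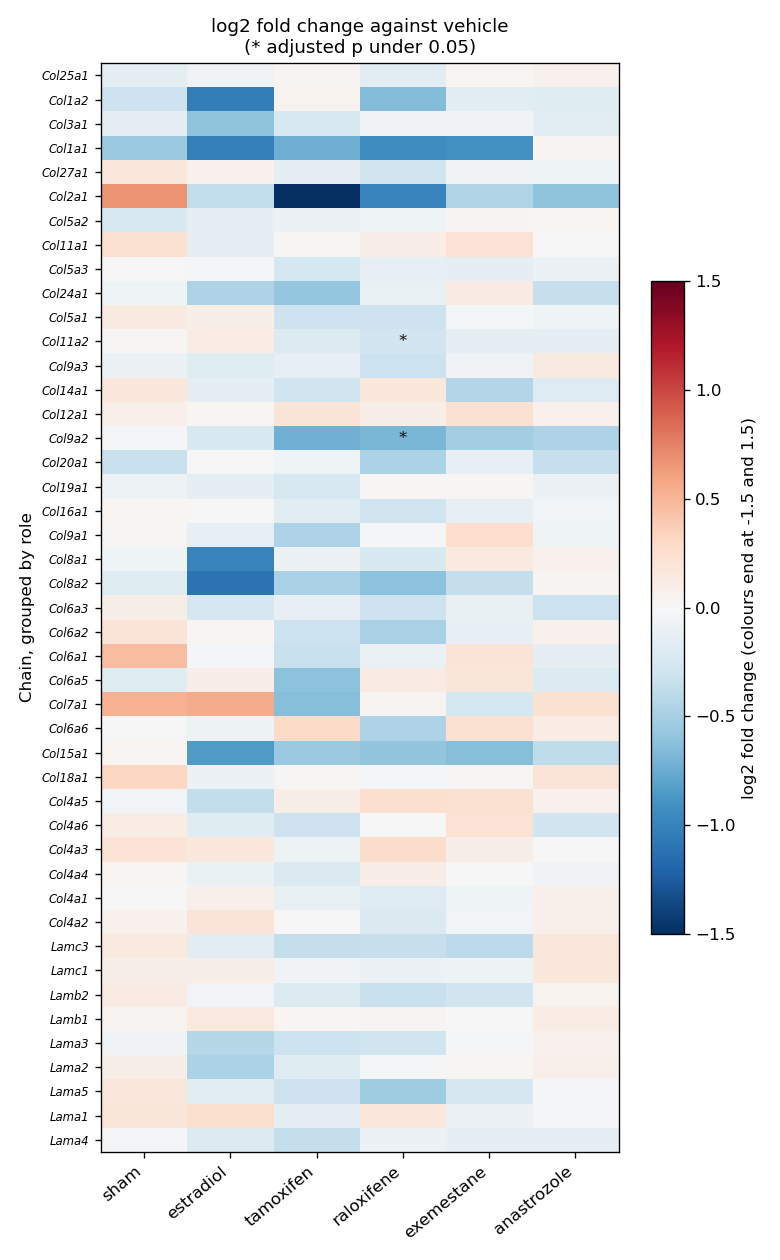
Log2 fold change of 45 of the 46 tested chains against vehicle in the 6 other groups, with asterisks for an edgeR adjusted p under 0.05. Only Col9a2 and Col11a2 under raloxifene carry one. Col8a1 and Col8a2 are blue under estradiol, a comparison of 1 library of high Ttr with 2.

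For tamoxifen, edgeR called 0 chains (0% of all genes), and DESeq2 called 1, Col9a2 (share of all genes by DESeq2 not counted). The unadjusted p was under 0.05 for 5 of 46 chains, a smaller share than the 2365 of 14411 over all tested genes. The median log2 fold change of the 46 chains was -0.20, against -0.0052 over all genes, and 38 of the 46 were negative. Some marker lists of other cell types also had negative medians, -0.22 for the endothelial list (10 of 10 genes negative), -0.26 for mural cells (10 of 12), -0.23 for the oligodendrocyte lineage (10 of 10) and -0.22 for microglia (8 of 8), and 0 of these genes passed. The median was 0.034 for the fibroblast list (8 of 15 genes positive) and 0.076 for hippocampal neurons (4 of 8). It was -0.16 for choroid plexus epithelium, -0.23 for ependyma, -0.07 for astrocytes and -0.12 for thalamus and habenula. Of the 5 tamoxifen libraries 3 are of class B, against 1 of 5 vehicle libraries. With class in the model the medians were -0.15 for the chains, -0.20 for the endothelial list and -0.18 for mural cells. They were -0.22 for the oligodendrocyte lineage, -0.13 for microglia, 0.078 for the fibroblast list and 0.082 for hippocampal neurons. The part of cell makeup and class in the median of the chains was not tested. Col2a1, a chain with few reads here, stood at 0.325, 0.830, 0.173, 0 and 0.495 CPM under tamoxifen and at 1.51, 1.71, 1.65, 0.941 and 0.868 CPM under vehicle, without overlap and with an edgeR adjusted p of 0.182. Lama4 differed by -0.36 and had an adjusted p of 0.213. Tamoxifen replicate 2 was high in many chains, and without it 4 chains passed, Col2a1, Col7a1, Col9a2 and Lamc3. How many of all genes passed without it was not counted. That library is 1 of 2 class A libraries of its group.

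For anastrozole edgeR and DESeq2 called 0 chains (0% of all genes by edgeR), and the median log2 fold change was -0.01. An unadjusted p under 0.05 was found for 1 of 46 chains and for 414 of all 14411 tested genes. Col15a1 differed by -0.38 ± 0.27 and Lamc1 by 0.16 ± 0.084 (edgeR adjusted p 0.9999 for both). Tamoxifen against raloxifene, the receptor modulators given at different doses, had 0 calls (0% of all genes). There 7 of 46 chains had an unadjusted p under 0.05, as had 1212 of all 14411 tested genes. Col7a1 stood at a mean of 2.05 ± 1.01 CPM under tamoxifen and 3.24 ± 0.547 under raloxifene (SD, n = 5; log2 difference -0.69, edgeR adjusted p = 0.584). Exemestane against anastrozole, aromatase inhibitors given at different doses, also had 0 calls (0% of all genes). Here 1 of 46 chains had an unadjusted p under 0.05, against 3900 of all 14411 tested genes. Lamc1 stood at 57.8, 53.4, 57.2, 49.5 and 70.9 CPM under exemestane and at 75.5, 68.7, 61.5, 62.7 and 73.7 CPM under anastrozole. The exemestane library at 70.9 CPM is the class A one of its group, and the anastrozole libraries at 61.5 and 62.7 CPM are the class B ones. The log2 difference was -0.24 ± 0.084 (edgeR adjusted p = 0.0977). DESeq2 called it, and its share of all genes was not counted.

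Between the library classes, with group and Ttr held, 13 of the 46 chains differed (28.3%), against 52.8% of all genes. Among all genes 7603 differed, and 3758 of those were higher in class B. Col8a1 and Lama2 were higher in class B, by 0.51 ± 0.17 and 0.26 ± 0.11, and the other 11 chains were lower. These were Lamc1 at -0.26 ± 0.046, Col27a1 at -0.39 ± 0.078, Col11a2 at -0.28 ± 0.06, Lamb2 at -0.39 ± 0.086, Col5a3 at -0.28, Col6a2 at -0.59, Lama5 at -0.32, Col5a1 at -0.38, Col4a2 at -0.22, Col9a2 at -0.33 and Col16a1 at -0.19 (edgeR adjusted p from 9.17e-06 to 0.0447).

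Several chains had a narrow range. Col25a1 ran from 29.6 to 43.4 CPM over the 35 libraries (median 34.98), Col4a1 from 35.8 to 57.5 (median 44.3), Col4a2 from 44.0 to 78.3 (median 56.9) and Lamb1 from 40.2 to 74.8 (median 62.1). By group Col4a1 stood, from the lowest, at 39.2 ± 3.59 CPM under raloxifene, 41.6 ± 4.05 under tamoxifen, 42.6 ± 2.94 under exemestane, 44.6 ± 7.28 under vehicle, 45.1 ± 1.62 in sham and 47.0 in both anastrozole (± 7.50) and estradiol (± 2.84; SD, n = 5). Neighbouring groups in that order differ by less than the larger of their SDs. The lowest and the highest, raloxifene and estradiol, differ by more than either SD, and all raloxifene libraries are of class B and all estradiol libraries of class A. Col6a1, a beaded-filament chain, ran from 5.42 to 48.3 CPM (median 24.9) and Col18a1, the chain that endostatin is cut from, from 7.37 to 29.04 CPM (median 12.7), and neither passed on Ttr (edgeR adjusted p 0.634 and 0.852).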

How the data were processed

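RNA of 35 hippocampi was sequenced as stranded poly(A) libraries with 100 bp paired reads, from RNA with a quality indicator above 7, per the labels' protocols. The authors deposited a table of estimated counts per gene (Salmon, per the submitters' processing notes), rounded here to whole numbers, and a table of normalized signal per gene (DESeq2, per the same notes). Their versions, genome build and annotation are not given in the sources used here. The normalized signal served only to derive the authors' per-gene factors and the library class. The class is the sign of the first component of the centred log ratio of both deposited tables over 14326 genes.

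Counts were fitted with edgeR 4.0.16 in R 4.3.3 (TMM scaling, filterByExpr, robust quasi-likelihood test, all 35 libraries in 1 model with group terms), and p-values were adjusted by Benjamini-Hochberg over 14411 genes with a threshold of 0.05. The slope model adds log2(Ttr CPM + 0.5). Fits on the fibroblast and endothelial lists add class and Ttr and were chosen after seeing the data. CPM are computed from the TMM-scaled counts. The labels say only that the libraries are separate samples, so p-values measure the spread between these samples. Within groups, pairs of libraries differed by 5.00 to 18.9 times the counting noise (chi-square per degree of freedom), and none was merged. The common coefficient of biological variation was 0.152, and a chain with few counts has in addition the counting error. Pairs of chains were compared by Pearson and Spearman correlation of log2 CPM with permutation tests.

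The chains, the gene lists and the tests were chosen with earlier results of these data known. Named are the chains past the threshold in a comparison or slope, the 3 of smallest p where none passed, a set shown by level, and up to 4 called genes per pathway list and comparison. Alternatives were DESeq2 1.42.0, its size factors, no filter, class or Ttr as covariates, the authors' factors, 1 class, the groups compared alone, other forms of Ttr and leaving out each library. The scripts were tested on simulated data. Promoter windows are from RefSeq (GRCr8), matched by symbol. The values of 1 laminin chain, which is included in the counts of members, are not reported here.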

Additional observations from a re-analysis of the deposited data

Results flagged for a closer look

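In each group of 5 libraries, a library was singled out when its gap to the nearest other library exceeded 0.71 of the whole range of the group. Among 32 chains in 7 groups, 224 sets in all, 39 were singled out (17.4%). Chance singles out about 1 in 20 sets drawn from 1 normal distribution, which is no baseline here, because many of these chains were named for their slope on Ttr and Ttr falls into 2 separate sets. Libraries recur among them, so the 39 are not independent, and what sets these libraries apart was not tested beyond the marker values given above.

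Tamoxifen replicate 2, whose Ttr level and fibroblast list are the highest of all, stood high for 12 chains. It held Col1a1 at 33.4 CPM (3.81 to 7.04 in the other 4 libraries of its group), Col1a2 at 50.1 (4.33 to 9.49), Col3a1 at 16.9 (1.09 to 4.17) and Col18a1 at 29.04 (7.37 to 13.2). Lamb2 stood there at 95.9 CPM (31.7 to 49.6), Lamc3 at 18.9 (4.06 to 6.04), Col6a3 at 12.9 (3.27 to 5.32) and Col27a1 at 73.2 (30.3 to 39.97). Col4a2 stood at 78.3 CPM (48.3 to 56.4), Col5a1 at 36.2 (21.1 to 23.1), Col12a1 at 41.2 (26.4 to 30.2) and Col7a1 at 3.82 (1.30 to 1.87).

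Raloxifene replicate 4, of high Ttr, stood high for 7 chains. They were Col1a1 at 24.2 CPM (4.88 to 7.55 in the others), Col1a2 at 31.4 (0 to 8.14), Col3a1 at 14.4 (2.51 to 4.90), Lamc3 at 15.7 (4.64 to 7.35), Col6a3 at 9.17 (4.07 to 4.61), Col15a1 at 3.33 (1.86 to 2.13) and Lamb1 at 68.5 (58.5 to 61.3). Sham replicate 2, also of high Ttr, held Col1a1 at 26.9 CPM (8.15 to 10.3), Col1a2 at 33.4 (3.44 to 10.7), Col3a1 at 11.04 (3.52 to 4.46), Col6a3 at 12.2 (4.85 to 6.49) and Col12a1 at 33.7 (26.5 to 26.98). Vehicle replicate 4 held Col1a1 at 54.3 CPM (6.404 to 12.4), and exemestane replicate 1 held Col18a1 at 22.4 CPM (10.2 to 12.7).

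Estradiol replicate 2, the only estradiol library of high Ttr, held Col8a1 at 24.7 CPM (0.482 to 1.33 in the others), Col8a2 at 17.8 (0.664 to 2.78), Lama3 at 39.97 (9.63 to 11.6), Lama2 at 27.9 (8.56 to 13.8) and Col9a3 at 22.2 (8.52 to 9.64). Sham replicate 1, which has the lowest sum of hippocampal neuron markers and the highest of thalamus and habenula markers, stood low for Col5a1 at 18.2 CPM (35.2 to 40.7) and Lamb1 at 40.2 (64.1 to 69.0) and high for Col9a2 at 15.2 (8.15 to 9.56) and Col2a1 at 5.71 (0.775 to 2.06). Estradiol replicate 5 held Col2a1 at 1.61 CPM (0.819 to 0.964), estradiol replicate 3 Col6a3 at 7.04 (4.67 to 5.30), exemestane replicate 5 Col11a2 at 255 (187 to 193) and vehicle replicate 1 Col27a1 at 38.7 (48.6 to 52.5).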

How the results depend on the processing

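Of 420 values of named chains under the alternatives other than leaving out a library, 358 kept their direction and their side of the threshold, 46 kept their direction only and 16 changed direction, and the cause was not tested. The count of 14 chains that rose with Ttr became 6 with the fibroblast list as a further covariate, 7 within class A, 8 without the 2 libraries farthest from the median Ttr, 0 within low Ttr and 3 within high Ttr, where fewer libraries entered. The fibroblast list itself rose with Ttr. With class in the model the count became 16, where 7.45% of all genes were called, and Col1a2 and Col6a2 were added. Col1a2 was also called with the authors' factors, linear Ttr, no group terms and the choroid plexus list in place of Ttr. The slopes on Ttr that changed direction with the fibroblast list were Lamb2 slope on Ttr -0.0185, Col3a1 -0.16, Col27a1 -0.00604, Col4a5 -0.0342, Col6a3 -0.0894, Lamc3 -0.0706 and Col1a1 -0.162. Within low Ttr they were Col9a3 -0.0517, Lamb2 -0.0339, Col3a1 -0.0929, Col27a1 -0.0301, Col4a5 -0.0297, Col15a1 -0.0232 and Col1a1 -0.128, and within high Ttr Lamc3 -0.0238. Col9a2 in exemestane was 0.0586 within class A, with 1 exemestane library.

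The 2 chains called for raloxifene became 0 with class in the model, 0 with the authors' per-gene factors, 0 with Ttr and class, and 4 with only the 2 groups compared. The 4 chains that differed among the groups became 0 with class. DESeq2 called 1 chain each for tamoxifen, exemestane and exemestane against anastrozole. Without single libraries the counts ran from 10 to 15 for Ttr, 3 to 8 for the fibroblast list, 0 to 2 for the endothelial list, 3 to 13 for any difference, 1 to 2 for raloxifene, 0 to 4 for tamoxifen, 0 to 1 for exemestane and 0 to 1 for exemestane against anastrozole. The shares of all genes in the fits without 1 library were not counted, so these ranges have no baseline. Nor were they counted for DESeq2, the authors' factors, the 2 groups compared alone or the Ttr slope without 2 libraries. The counts of chains there have no baseline either. No paired analysis was possible because the labels give the libraries no replicate numbers shared between groups. Chains near 1 CPM rest on few counts at these depths, and a p that misses the threshold does not show that a chain did not differ.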

Other observations

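The 4 chains with too few counts to test stayed low in every library. Col13a1, a transmembrane collagen, ran from 0.108 to 2.16 CPM over the 35 libraries. Lamb3, a beta chain that joins Lama3 in an epithelial laminin of skin, ran from 0 to 1.73 CPM, with like ranges in the libraries of low Ttr (0 to 1.73) and high Ttr (0.380 to 1.33), whereas Lama3 did not overlap between those sets. Col26a1 ran from 0 to 1.47 CPM and Col28a1 from 0 to 1.32 CPM.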
